A study of Mus musculus with 4 samples.

Results

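VEGF and angiopoietin genes were examined in the epididymal adipose tissue of obese mice with different dietary histories. The group consists of 10 genes chosen by symbol among the 24421 genes of the data: the ligands Vegfa, Vegfb, Vegfc, Pgf, Angpt1 and Angpt2 and the receptors Kdr, Flt1, Flt4 and Tek, 6 ligands and 4 receptors. All mice were wild-type male C57BL/6J. Weight-cycling mice (WC1) were put on high-fat diet (HFD) at 8 weeks of age, stayed on it for 8 weeks, lost weight on standard diet for 2 weeks and returned to HFD for 6 weeks. High-fat control mice (Ctrl) were 10 weeks old when HFD began and received it without a break for 14 weeks. The groups therefore shared 14 weeks of HFD and an age of 24 weeks at the end, but not the age at which HFD began.

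There were 2 libraries per group. As recovered from the deposited values, they held between 61465029 and 90965297 reads assigned to genes. Each member received at least 158 of these reads in every library. The labels do not say that the libraries come from separate mice, so the p-values measure the spread between these libraries only. The defining genes of adipose tissue were abundant in every library. Adipoq stood at 630 and 784 CPM in Ctrl and 1398 and 1944 CPM in WC1, so it also differed between the groups. CPM here is the number of reads scaled by 1 factor per library, as deposited, and TPM also divides by transcript length. The CPM of a library summed to 104.8% and 104.5% of the nominal total in Ctrl and to 101.0% and 97.6% in WC1, and how the factor was set was not given. With median-of-ratios scaling of the libraries, 7 members were again called higher and 0 lower.

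In mammals, VEGF ligands are secreted growth factors that bind receptor tyrosine kinases on endothelial cells. VEGF-A acts mainly through VEGFR2 (encoded by Kdr) to drive endothelial growth and sprouting, whereas VEGFR1 (Flt1) binds VEGF-A, VEGF-B and PlGF (Pgf) tightly and, partly as a soluble form, limits the VEGF-A available to VEGFR2. VEGF-C and its receptor VEGFR3 (Flt4) are known for lymphatic growth. Angiopoietin-1 activates the receptor TIE2 (Tek) and stabilizes vessels, while angiopoietin-2, released by endothelial cells themselves, often opposes it. Adipose tissue depends on this system because the capillary bed must grow along with the fat cells, and adipocytes are themselves a known source of VEGF-A and VEGF-B.

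All 4 receptors rose in WC1, together with 3 of the 6 ligands (Vegfa, Vegfc and Pgf). Vegfb, Angpt1 and Angpt2 did not pass the test. A gene was called at an adjusted p under 0.05 in limma (linear model of log2(CPM + 1), Benjamini-Hochberg over 14106 genes). By this rule 7 of 10 members were called higher and 0 lower. In the background of all tested genes, 17.9% were called, 10.2% as higher and 7.71% as lower. Among the members lower in WC1, 1 (Angpt2) had an unadjusted limma p under 0.05. Such a p was common: 5329 of the 14106 tested genes had it, in either direction. DESeq2 called Angpt2 lower, and 3861 of all genes in either direction. The median log2 fold change (WC1 minus Ctrl) was 1.13 for the receptors and 0.48 for the ligands, compared to -0.02 over all tested genes. The libraries of both groups did not overlap in 9 members, 7 higher and 2 lower in WC1, but this was common: it held for 69.3% of all tested genes, 32.7% higher and 36.6% lower. The 7 calls required both Ctrl libraries. Without Ctrl 1 or without Ctrl 2 no member was called. The log2 fold changes of the 7 genes were then 0.73 (Vegfc) to 1.51 (Kdr) and 0.71 (Vegfc) to 1.38 (Flt4), compared to 0.72 (Vegfc) to 1.43 (Kdr) with all libraries. Over all genes the calls then numbered 6 and 12, compared to 2531 with all libraries. Without WC1 1, limma called 7 members higher and 1 (Angpt2) lower, and 5172 of all genes. Without WC1 2, it called 6 members higher and 0 lower, and 2650 of all genes.

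**Figure D1:**
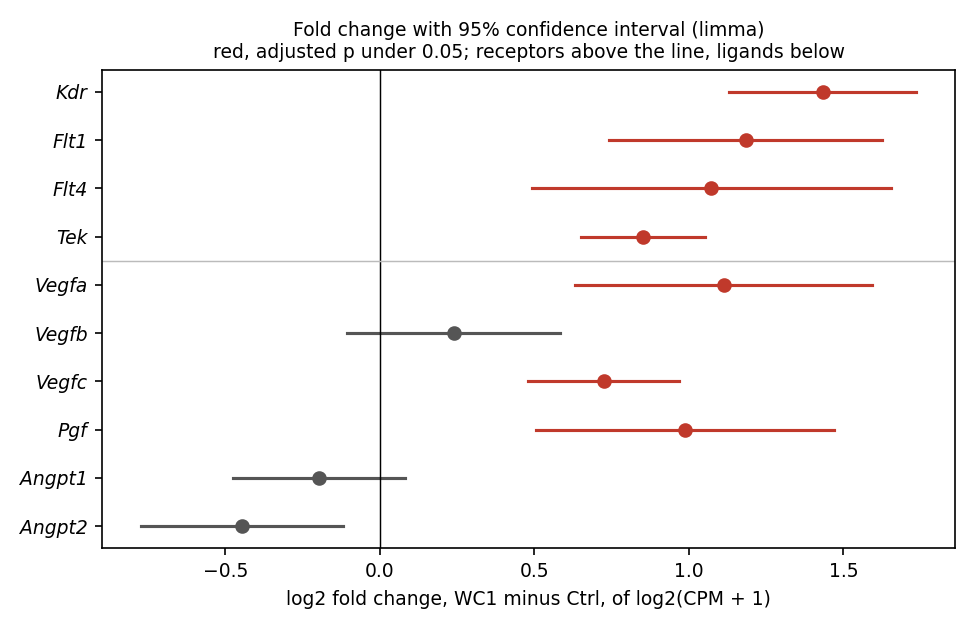
Log2 fold change of each gene, WC1 minus Ctrl on the log2(CPM + 1) scale (x axis), with the 95% confidence interval from limma over 2 libraries per group. The intervals of the 4 receptors and of Vegfa, Vegfc and Pgf lie above 0, that of Angpt2 lies below 0, and those of Vegfb and Angpt1 include 0.

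The genes are dispersed in the genome (GENCODE M21, GRCm38, the mm10 build of the submitters' notes). Kdr spans 5:75932827-75978458 and Flt1 spans 5:147561604-147726011, both on the minus strand. Tek spans 4:94739289-94874976 and Flt4 spans 11:49609263-49652739, both on the plus strand. The ligand genes Vegfa (17:46016993-46032369), Vegfb (19:6982473-6987651), Pgf (12:85166635-85177790), Angpt1 (15:42424723-42676977) and Angpt2 (8:18690263-18741562) lie on the minus strand, and Vegfc (8:54077606-54187096) lies on the plus strand. The DNA just upstream of Kdr, Flt1, Tek and Vegfa is shown because these are the 3 most abundant receptors and the most abundant ligand among the genes that rose. Each window covers the bases from 250 to 11 before the RefSeq start (GRCm38.p6), read 5′ to 3′ on the strand of the gene. Capitals mark the letters GGAA or, for the opposite strand, TTCC, the core recognized by ETS factors, a family that includes regulators of endothelial genes.

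Kdr, chr5:75978466-75978705: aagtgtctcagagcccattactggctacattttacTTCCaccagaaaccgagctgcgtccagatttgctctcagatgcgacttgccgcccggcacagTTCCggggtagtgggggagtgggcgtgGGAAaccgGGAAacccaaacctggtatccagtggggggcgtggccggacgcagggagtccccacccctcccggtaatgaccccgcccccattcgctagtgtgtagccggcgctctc
Flt1, chr5:147726022-147726261: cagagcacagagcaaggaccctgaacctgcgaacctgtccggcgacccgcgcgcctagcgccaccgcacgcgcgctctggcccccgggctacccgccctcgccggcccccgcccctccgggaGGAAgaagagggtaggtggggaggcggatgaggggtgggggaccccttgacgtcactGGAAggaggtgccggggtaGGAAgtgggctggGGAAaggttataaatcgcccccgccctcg
Tek, chr4:94739039-94739278: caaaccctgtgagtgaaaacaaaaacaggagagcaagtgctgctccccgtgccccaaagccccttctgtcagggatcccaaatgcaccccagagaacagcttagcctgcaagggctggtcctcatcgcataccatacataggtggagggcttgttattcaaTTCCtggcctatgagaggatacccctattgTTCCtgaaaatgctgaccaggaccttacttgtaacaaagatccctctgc
Vegfa, chr17:46032388-46032627: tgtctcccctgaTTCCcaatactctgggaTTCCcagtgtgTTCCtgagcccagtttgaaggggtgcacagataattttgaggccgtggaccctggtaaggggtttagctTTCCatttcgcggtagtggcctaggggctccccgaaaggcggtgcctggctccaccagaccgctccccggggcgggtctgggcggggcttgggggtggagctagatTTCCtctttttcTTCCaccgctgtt

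The ETS core was found 4 times upstream of Kdr, 4 times upstream of Flt1, 2 times upstream of Tek and 6 times upstream of Vegfa. In the members' windows not shown it was found 2 times for Flt4, 1 time each for Vegfb, Vegfc and the other Vegfa window, and not for Pgf. Such short letters are common: 92.7% of 32851 windows of the same 240 bases held at least 1 match on either strand, with a median of 3. The core of the hypoxia response element occurs in a form with A first (ACGTG or CACGT), present in 15.9% of all windows, and in a form with G first (GCGTG or CACGC), present in 27.1%. The form with A first had no match in the 4 windows shown. The form with G first was found 2 times upstream of Kdr and 1 time upstream of Flt1, and not upstream of Tek or in the Vegfa window shown. The other RefSeq window of Vegfa (chr17:46025174-46025413, not shown) held 1 match of each form. The form with G first was also found 2 times for Vegfb, which was not called, and 1 time in 1 window of Pgf. It was not found for Vegfc or Flt4. The core of the GC box (GGGCGG or CCGCCC), present in 31.3% of all windows, was found 2 times for Kdr, 3 times for Flt1, 2 times for Vegfa and not for Tek. In the windows not shown it was found 4 times for Vegfb, 3 times for Flt4, 2 times for Vegfc and in 1 window of Pgf, and 1 time for Vegfa. The 4 motifs were searched separately on both strands, and overlaps between them were not removed. In Tek, 50.8% of the bases were G or C, against 70.8% in Flt1. RefSeq windows were matched for 8 of the 10 genes, not for Angpt1 and Angpt2.

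Next, the receptors were examined one by one. Kdr, the main signalling receptor for VEGF-A, stood at 42.2 and 38.0 CPM in the Ctrl libraries, compared to 99.7 and 121 CPM in the WC1 libraries. Both WC1 libraries were more than double either Ctrl library. The mean rose from 40.1 ± 3.0 to 110 ± 15 CPM (SD over 2 libraries each), a 2.75-fold ratio and a log2 fold change of 1.43 (SE 0.12, adjusted p = 0.010 by limma). Among all tested genes, 53 genes (0.376%) had a larger log2 fold change.

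Flt1, which encodes the high-affinity receptor VEGFR1, stood at 27.1 and 33.8 CPM in the Ctrl libraries, compared to 60.8 and 80.4 CPM in the WC1 libraries. The groups did not overlap, and the WC1 libraries differed from each other more than the Ctrl libraries did. The log2 fold change was 1.18 (SE 0.17, adjusted p = 0.021 by limma). Membrane-bound and soluble Flt1 transcripts were summed in these gene-level values and cannot be told apart.

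Tek, the angiopoietin receptor, stood at 30.9 and 32.9 CPM in the Ctrl libraries, compared to 56.3 and 60.4 CPM in the WC1 libraries. Libraries of the same group lay close together, which gave the smallest error among the receptors. The WC1 to Ctrl log2 fold change was 0.85 (SE 0.08, adjusted p = 0.012 by limma).

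Flt4, the receptor for VEGF-C and in TPM the least abundant of the receptors, stood at 5.63 and 9.12 CPM in the Ctrl libraries, compared to 14.8 and 17.7 CPM in the WC1 libraries. Relative to its level, Flt4 was the receptor with the widest gap between the Ctrl libraries. Flt4 had a log2 fold change of 1.07 (SE 0.23, adjusted p = 0.038 by limma). Without Ctrl 1 it was 0.77 and without Ctrl 2 it was 1.38. The call was also lost without WC1 2 (limma adjusted p = 0.050, just above the threshold) and without a filter on low values (limma adjusted p = 0.070).

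**Figure D2:**
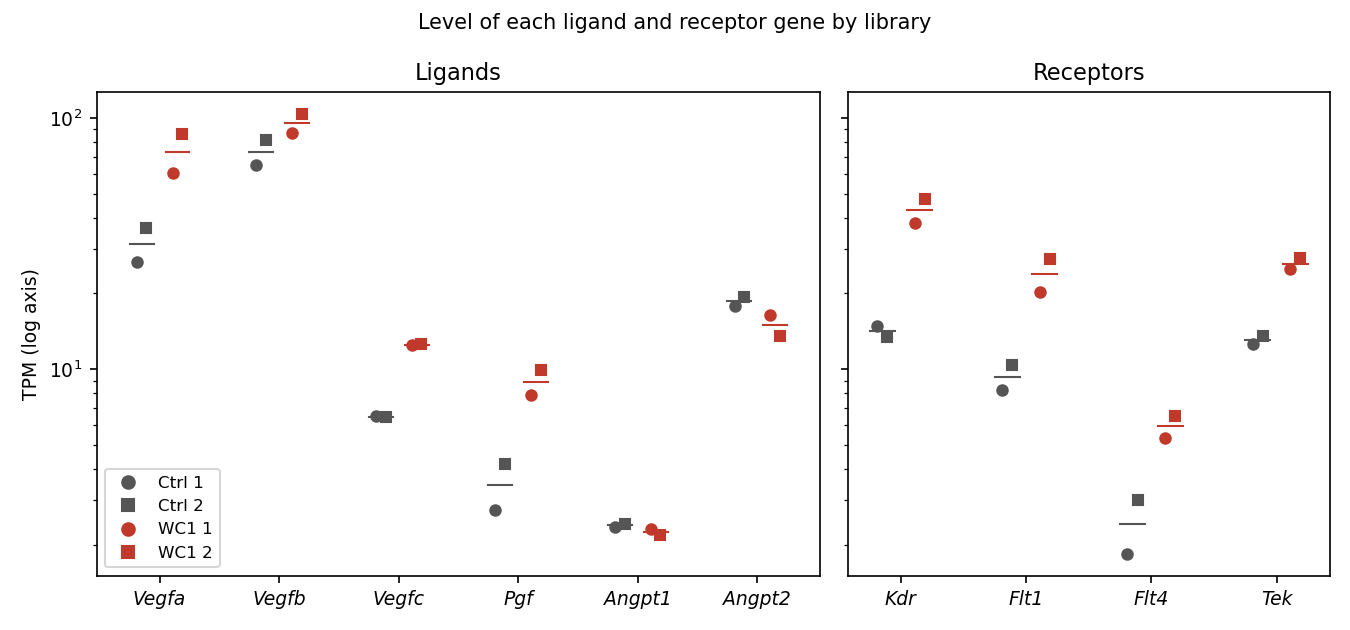
TPM of each gene (y axis, log scale) in the 2 Ctrl libraries (grey) and the 2 WC1 libraries (red), with a bar at each group mean; circles are library 1 and squares are library 2. The 4 receptors lie higher in both WC1 libraries, as do Vegfa, Vegfb, Vegfc and Pgf, while Angpt1 and Angpt2 lie slightly lower.

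The ligands followed no common direction. Vegfa, which encodes the principal angiogenic factor of this family, stood at 47.4 and 59.1 CPM in the Ctrl libraries, compared to 98.2 and 136 CPM in the WC1 libraries. Its mean rose from 53.2 ± 8.2 to 117 ± 27 CPM (SD over 2 libraries each), a 2.20-fold ratio and a log2 fold change of 1.11 (SE 0.19, adjusted p = 0.026 by limma). The call was lost without a filter on low values, where more genes were tested (limma adjusted p = 0.051). CPM divided by TPM, a measure of the transcript length behind the values, varied most between libraries for Vegfa among the 10 genes. Relative to the median gene of each library it was 1.21, 1.12, 1.21 and 1.21 in Ctrl 1, Ctrl 2, WC1 1 and WC1 2, so Ctrl 2 stood apart. Which Vegfa transcripts differed was not analysed here.

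Pgf encodes placental growth factor, a ligand of VEGFR1 only. It stood at 2.31 and 3.44 CPM in the Ctrl libraries, compared to 5.97 and 7.29 CPM in the WC1 libraries, with no overlap. Its log2 fold change was 0.99 (SE 0.19, adjusted p = 0.032 by limma), and the call was lost without a filter on low values (limma adjusted p = 0.061).

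Vegfc, the lymphatic growth factor, stood at 6.39 and 6.29 CPM in the Ctrl libraries, compared to 11.2 and 11.01 CPM in the WC1 libraries. Libraries of the same group were nearly equal. This gave a log2 fold change of 0.72 (SE 0.10, adjusted p = 0.018 by limma).

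Vegfb, which binds VEGFR1 and is known for its abundance in fat, heart and muscle, stood at 42.2 and 52.6 CPM in the Ctrl libraries, compared to 51.9 and 59.9 CPM in the WC1 libraries. The groups overlapped in CPM, since WC1 1 lay below Ctrl 2. In TPM they did not overlap, with 64.7 and 81.3 in Ctrl, compared to 87.5 and 103.6 in WC1. The log2 fold change of 0.24 had a 95% interval from -0.11 to 0.58 (limma adjusted p = 0.26), an interval that includes a slight fall as well as a rise. It was 0.39 in TPM (limma adjusted p = 0.13) and 0.08 without Ctrl 1, 0.39 without Ctrl 2 and 0.14 without WC1 2.

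Angpt2 encodes the context-dependent TIE2 ligand. It stood at 33.4 and 35.8 CPM in the Ctrl libraries, compared to 28.2 and 22.4 CPM in the WC1 libraries, with no overlap. The log2 fold change was -0.45 with a 95% interval from -0.77 to -0.12 and a limma adjusted p of 0.070, which did not pass the threshold. It was -0.29 without WC1 2, -0.61 without WC1 1 and -0.30 in TPM (limma adjusted p = 0.14). The adjusted p was 0.067 in edgeR and 0.022 in DESeq2 on the reads recovered from the CPM values, and over 13 alternatives it ranged from 0.0049 (limma without WC1 1) to 0.29 (limma without Ctrl 2).

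Angpt1, the TIE2 agonist, stood at 5.34 and 5.45 CPM in the Ctrl libraries, compared to 4.77 and 4.38 CPM in the WC1 libraries. Its log2 fold change of -0.20 had a 95% interval from -0.48 to 0.08 (limma adjusted p = 0.25), and it was -0.07 in TPM. The angiopoietin ligands thus lay slightly lower in both WC1 libraries while their receptor Tek was higher, and neither ligand passed the test.

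The order of the levels was compared in TPM, which allows different genes to be set side by side. In Ctrl, Vegfb was the most abundant at 73.0 ± 11.7 TPM (SD, n = 2), followed by Vegfa at 31.6 ± 6.9 TPM, Angpt2 at 18.7 ± 1.1 TPM and then Kdr at 14.1 ± 1.0 TPM. Kdr and Tek overlapped in Ctrl, as did Pgf and Flt4, and Flt4 and Angpt1. In WC1, Vegfb remained first at 95.5 ± 11.4 TPM and Vegfa second at 73.3 ± 18.5 TPM, but Kdr (42.9 ± 6.8 TPM), Tek (26.3 ± 1.9 TPM) and Flt1 (23.9 ± 5.2 TPM) now all stood above Angpt2 (15 ± 2.1 TPM). Only Tek and Flt1 overlapped as neighbours in this order. Summed over the receptors, the level was 37.4 and 40.3 TPM in Ctrl and 88.5 and 109 TPM in WC1. Summed over the ligands it was 121 and 150 TPM in Ctrl and 187 and 228 TPM in WC1. The use of TPM moved the all-gene median of the log2 fold changes up by 0.12, and 77.9% of all calls were then higher in WC1, compared to 57.0% in CPM. In TPM the same 7 members were called in the same direction, and relative to the all-gene median their log2 fold changes lay between 0.75 (Vegfc) and 1.43 (Kdr).

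Ratios between members were then computed per library from TPM. For these single values an exact permutation test of 2 against 2 libraries cannot go below p = 0.333. The log2 ratio of Vegfa to Vegfb was -1.28 and -1.16 in Ctrl, compared to -0.54 and -0.26 in WC1. Vegfa thus came closer to Vegfb in both WC1 libraries, a difference of 0.82 with no overlap (exact permutation p = 0.333). The log2 ratio of Vegfa to Flt1, ligand to its tightest receptor, was 1.70 and 1.81 in Ctrl, compared to 1.58 and 1.65 in WC1, a difference of -0.14 (exact permutation p = 0.333). This difference was -0.08 without Ctrl 2 and also with a pseudocount of 1 TPM. The log2 ratio of Kdr to Flt1 was 0.85 and 0.37 in Ctrl, compared to 0.92 and 0.79 in WC1, and the groups overlapped. The log2 ratio of Angpt2 to Angpt1 was 2.92 and 2.999 in Ctrl, compared to 2.84 and 2.63 in WC1, a difference of -0.23 that was -0.12 without WC1 2. The log2 ratio of Pgf to Vegfa, at -3.28 and -3.12 in Ctrl, was -2.94 and -3.12 in WC1, a difference of 0.17 that became -0.03 with a pseudocount of 1 TPM.

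Since the receptors are endothelial genes, they were set beside a list of 20 other endothelial genes, such as Cdh5 (VE-cadherin), Pecam1 and Cldn5. Of these, 16 were called higher and 0 lower, with a median log2 fold change of 0.99. The sum of their CPM was 742 and 863 in Ctrl, compared to 1418 and 1875 in WC1. CPM is a share of each library, so these are relative levels. In bulk tissue, more endothelial cells, more RNA per endothelial cell and less RNA from other cells cannot be told apart. The log2 fold change of Kdr (1.43) was exceeded by 1 of the 20 endothelial genes, Cldn5 (1.76), and that of Flt1 (1.18) by Cldn5 and Cdh5 (1.38). Flt4 (1.07) was exceeded by 7 and Tek (0.85) by 13 of the 20. The endothelial list also contains a gene that hardly moved, Plvap, a component of fenestrated capillaries (log2 fold change -0.03, limma adjusted p = 0.88).

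**Figure D3:**
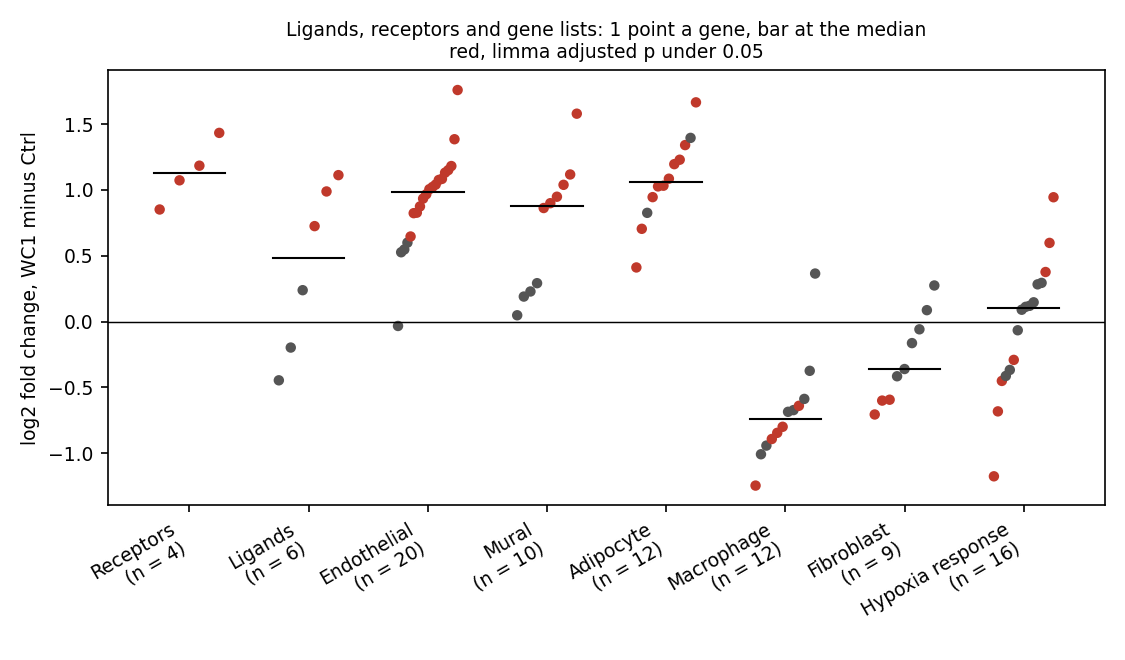
Log2 fold change of each tested gene (y axis, WC1 minus Ctrl) by group of genes, with a bar at the median; red points had a limma adjusted p under 0.05. The receptors lie within the range of the endothelial genes, which runs from -0.03 to 1.76. Adipocyte and mural genes all lie above 0, whereas macrophage genes lie mostly below 0.

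Each receptor was next expressed relative to the mean log2(CPM + 1) of the 20 endothelial genes. Kdr stood 0.65 and 0.34 above that mean in Ctrl and 1.049 and 0.949 above it in WC1. Both WC1 libraries exceeded both Ctrl libraries, by 0.51 on average (exact permutation p = 0.333). Flt1 stood at 0.03 and 0.17 in Ctrl, compared to 0.35 and 0.37 in WC1, a difference of 0.26 with no overlap (exact permutation p = 0.333). Tek stood at 0.21 and 0.14 in Ctrl, compared to 0.24 and -0.04 in WC1, and Flt4 stood at -2.06 and -1.61 in Ctrl, compared to -1.62 and -1.75 in WC1. For Tek and Flt4 the groups overlapped, and the mean difference (-0.08 and 0.15) was smaller than the spread between libraries. The sign changed for Tek without WC1 2 (0.06) and for Flt4 without Ctrl 1 (-0.08). In TPM the differences were 0.48 for Kdr, 0.21 for Flt1, -0.09 for Tek and -0.02 for Flt4.

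**Figure D4:**
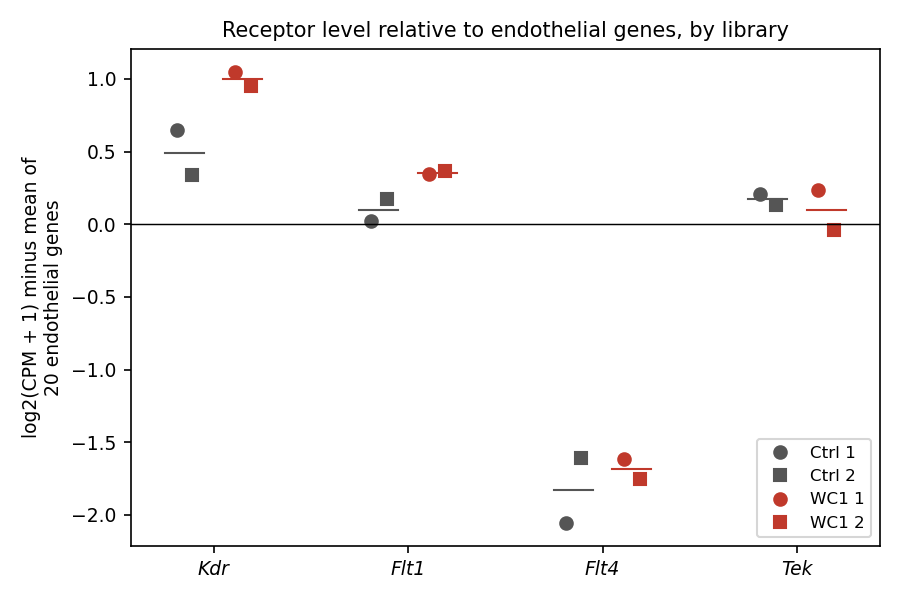
Level of each receptor on the log2(CPM + 1) scale minus the mean of 20 endothelial genes (y axis) in each library, with a bar at each group mean. Kdr and Flt1 are higher in both WC1 libraries, while the groups overlap for Tek and Flt4.

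Flt4 and Vegfc were also set beside lymphatic endothelial genes. Of the 6 genes of this list 5 were tested, and 0 were called higher and 1 lower, namely Pdpn, which fibroblasts and macrophages also express (log2 fold change -1.20, limma adjusted p = 0.021). Mmrn1 (0.76) and Reln (0.64) did not pass the test, with limma adjusted p values of 0.090 and 0.10. Prox1, the defining transcription factor of lymphatic endothelium, had 5 reads in Ctrl 1, 14 reads in WC1 1 and 0 reads in the other libraries, and was too low to test. Lyve1 stood at 26.1 and 43.4 CPM in the Ctrl libraries, compared to 36.2 and 40.2 CPM in the WC1 libraries, with overlap. Ccl21a, whose reads may be shared with near-identical copies, had 707 reads in Ctrl 2 but 10 in Ctrl 1, 59 in WC1 1 and 22 in WC1 2, so that its log2 fold change of -0.99 (SE 0.97, adjusted p = 0.50 by limma) rested on Ctrl 2. Flt4 and Lyve1 were also higher in Ctrl 2 than in Ctrl 1. So was the mean log2(CPM + 1) of the 20 endothelial genes (4.95 against 4.79), while Pdpn was lower (102 against 108 CPM). The part of lymphatic cells in the Flt4 values was not tested.

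Genes of other cell types also differed between the groups. The adipocyte list, whose cells are a known source of VEGF-A, had 10 of 12 genes called higher (median log2 fold change 1.06), and its summed level ranged from 5845 to 7162 CPM in Ctrl and from 11782 to 15679 CPM in WC1. Aqp7 (1.20), Plin4 (1.08) and Plin1 (1.03) had the smallest p, and Cidec, the most abundant, had 0.83 (limma adjusted p = 0.053). The mural list (pericytes and smooth muscle, a known source of angiopoietin-1) had 6 of 10 genes called higher, with Rgs5 at 1.58, Notch3 at 0.95 and Cox4i2 at 0.86, while Pdgfrb, its most abundant gene, had 0.05 (limma adjusted p = 0.66). The summed mural level was 326 to 333 CPM in Ctrl and 441 to 492 CPM in WC1. The macrophage list had 5 of 12 genes called lower, among them Mrc1 (-0.89), C1qa (-0.85) and Lyz2 (-1.25), and its summed level was 12829 to 13962 CPM in Ctrl and 5900 to 8396 CPM in WC1. The fibroblast list had 3 of 9 genes called lower, Pdgfra (-0.59), Dcn (-0.60) and Lum (-0.71), while Col3a1 had -0.36 (limma adjusted p = 0.34) and Col1a1 (0.09) and Dpp4 (0.27) lay above 0. The mesothelial list had 0 of 6 genes called, and its summed level of 122 and 90.5 CPM in Ctrl, 60.7 CPM in WC1 1 and 163 CPM in WC1 2 set the WC1 libraries apart from each other. The part of these cell types in the values of the ligands and receptors was not tested.

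The wider pathway was described with lists of its partners and of genes known to respond to it. Of 21 partners, 5 were called higher and 2 lower, with a median log2 fold change of -0.04, compared to 10.2% higher and 7.71% lower among all tested genes. Those higher were Tie1, the co-receptor of TIE2 (1.18), Ptprb, a phosphatase that acts on TIE2 (0.97), Plcg1, which binds activated VEGFR2 (0.62), and the matrix genes Hspg2 (0.75) and Adamts1 (0.36). The first 2 are also in the endothelial list. Those lower were Nrp2, the neuropilin that serves as co-receptor of VEGFR3 (-0.71, limma adjusted p = 0.025), and Angpt4 (-0.65, limma adjusted p = 0.039), a minor angiopoietin at 0.27 to 1.15 CPM. Angpt4 passed the filter on low values only through the Ctrl libraries, where it is high, so its call is a description. Nrp1, co-receptor of VEGFR2, had -0.22 and did not pass the test (limma adjusted p = 0.14), nor did Itgb1, the most abundant partner in TPM (-0.07, limma adjusted p = 0.67). Nrp2 and Flt4 thus lay on opposite sides of 0. Vegfd, listed under its older symbol Figf, stood at 30.02 and 31.37 CPM in the Ctrl libraries, compared to 34.8 and 43.0 CPM in the WC1 libraries (limma adjusted p = 0.12).

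Genes that VEGF signalling is known to induce in endothelial cells included 12 genes that are not members, of which 6 were called higher and 0 lower. Among all tested genes, 10.2% were called higher and 7.71% lower. Dll4, the NOTCH ligand of endothelial tip cells, stood at 8.61 and 10.7 CPM in the Ctrl libraries, compared to 23.4 and 32.8 CPM in the WC1 libraries, a log2 fold change of 1.44 (SE 0.19, adjusted p = 0.019 by limma). The NOTCH target Nrarp had 1.46 and the most abundant gene of the list, Rgcc, had 0.86 (limma adjusted p = 0.020 and 0.024). The other 3 were Hey1, Nos3 and Apln. Hey2 (0.49), Egr3 (0.41), Nr4a1 (0.13), Dusp5 (-0.14) and Rcan1 (-0.17) did not pass the test, with limma adjusted p values between 0.10 and 0.61. Esm1, a marker of sprouting tip cells, was low and did not pass the test, at 2.11 and 3.18 CPM in the Ctrl libraries, compared to 1.61 and 3.07 CPM in the WC1 libraries (limma adjusted p = 0.72). These genes are expressed by endothelial cells, of whose 20 listed genes 16 were called higher.

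The hypoxia response was examined because hypoxia is a known inducer of Vegfa. Its 5 regulators included 2 called higher, Epas1 (0.60), which encodes HIF-2α and is abundant in endothelial cells, and Vhl (0.38). Of the 11 other target genes on the list used here, 1 was called higher and 4 lower. Bnip3 was higher (0.94), whereas the glucose transporter gene Slc2a1 (-1.18) and the glycolytic gene Pgk1 (-0.68) were lower, with limma adjusted p values between 0.013 and 0.023. P4ha1 (-0.45) and Ero1l (-0.29) were the others called lower. Ldha, the most abundant, had 0.12 (limma adjusted p = 0.41). Ldha and the other listed targets, 6 in all, were not called. The list does not hold every known target. Adm (0.67) and Angptl4 (0.73), grouped with other regulators of vessel growth and called higher, were not on it. The part of hypoxia in the Vegfa values was not tested.

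Finally, genes with the most similar pattern were sought for the most abundant receptor and ligand, by the Euclidean distance over the 4 libraries of log2(CPM + 1) after each gene's own mean was subtracted. Among 10802 genes with a mean of at least 5 CPM, the closest to Kdr were Aplnr (distance 0.085), Rgs4 (0.095) and Tfr2 (0.128). Aplnr, the receptor of the apelin peptides and itself an endothelial gene, stood at 27.8 and 27.1 CPM in the Ctrl libraries, compared to 69.9 and 84.8 CPM in the WC1 libraries. Usp2 (0.035) and Hoxc4 (0.041) were among the closest to Vegfb, and neither was called. With only 4 libraries such closeness is a description.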

How the data were processed

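Directional libraries of poly(A) RNA had been sequenced from epididymal adipose tissue. Groups and replicate numbers came from the sample titles. The authors deposited 2 gene matrices. The first holds a signal proportional to reads, named CPM by the authors: each value divided by the value of 1 read was whole within 0.01 read for 100% of the values above 0, and its columns summed to 97.6% to 105% of the total that CPM should have. The second holds TPM as deposited by the authors. The submitters' processing notes name fastp, HISAT2, StringTie and mm10. The read counter, its use of strand and the annotation were not given in the sources used here.

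Genes with at least 0.5 CPM in 2 libraries were tested (14106 tested, 10315 left out, all 10 members kept) on log2(CPM + 1), a scale that understates changes of low genes. WC1 was compared with Ctrl in limma 3.58.1 (R 4.3.3, abundance trend, two-sided). Errors are SE of the model or SD of 2 libraries. At these depths 3 reads correspond to at most 0.0492 CPM, for counting error only. Alternatives were other pseudocounts, filters and scalings, the TPM matrix, edgeR 4.0.16 and DESeq2 1.42.0 on recovered reads, each library left out and the replicate number as a block. The form GCGTG of the hypoxia response core was added to the motifs after the other motif counts were seen.

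Members and gene lists were chosen with earlier results of these data known. Named genes were the members, the 3 genes of each list with the smallest p and its most abundant gene in TPM, and 3 genes of like pattern, of which 1 is not reported here. Genes named beyond this (among them Adipoq, Pecam1, Plvap, Prox1, Lyve1, Ccl21a, Col1a1, Dpp4, Nrp1, Vegfd, Angpt4, Ptprb, Hspg2, Adamts1, Hey1, Hey2, Nos3, Apln, Esm1, Egr3, Nr4a1, Dusp5, Rcan1, Epas1, Vhl, P4ha1, Ero1l and Adam7) were chosen after their values were seen. Absent list symbols were looked up among RefSeq synonyms.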

Additional observations from a re-analysis of the deposited data

How the results depend on the processing

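These results rest on 2 libraries per group, with at least 158 reads per member and library. The 10 members kept their direction in all 128 values under the alternatives run: call and direction were kept in 108, the call was lost in 18 and gained in 2 (Angpt2). Of the lost calls, 14 came without a Ctrl library. Over all genes, 2531 were called, 1320 without a filter, 3861 with DESeq2 and 6 to 5172 with a library left out. Members called higher numbered 7, and 4 without a filter (Vegfa, Pgf and Flt4 lost). In the fit without a filter 7 had an unadjusted limma p under 0.05, as did 5629 of 18132 genes in either direction. With a Ctrl library left out, the calls were lost. Members called lower numbered 0, with 1 in DESeq2 and 0 to 1 with a library left out. A group left with a single library was assumed to vary like the other group; the cause of the lost calls was not tested. A mean of at least 5 CPM left out Pgf and Angpt1. Adding a replicate block to the model gave 3266 called genes and 7 members called, all 7 higher; equal numbers are not said to pair mice (r = 0.19 over 14106 genes between the replicate differences of the groups, 2 pairs). The log2 ratio of Pgf to Vegfa differed by 0.17 between groups, but by -0.027 with a pseudocount of 1 before the ratio.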

Other observations

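Other regulators of vessel growth were measured alongside the VEGF and angiopoietin genes. Of 10 tested activators, 4 were called higher and 0 lower in WC1. Efnb2, the ephrin ligand of arterial endothelium, stood at 11.1 and 12.1 CPM in the Ctrl libraries, compared to 23.7 and 30.3 CPM in the WC1 libraries, a log2 fold change of 1.14 (SE 0.14, adjusted p = 0.017 by limma). Adm, which encodes the vasodilator adrenomedullin, had 0.67, and Angptl4, a secreted inhibitor of lipoprotein lipase and the most abundant gene of the list, had 0.73 (limma adjusted p = 0.027 and 0.029). Fgf1 had 0.53 (limma adjusted p = 0.046). Of 7 inhibitors, 3 were also called higher and 0 lower: Sema3f (0.89), Thbs1 (0.76) and Vash1 (0.66), with limma adjusted p values between 0.032 and 0.045. Activators and inhibitors of angiogenesis were thus both represented among the genes that rose.

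Of 6 epididymis genes, none was tested, since none reached 0.5 CPM in 2 libraries. Adam7, an epididymis gene, had 0 reads in both Ctrl libraries, 184 reads in WC1 1 and 2 reads in WC1 2.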
